A study of Mus musculus with 12 samples.

Results

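The genes of transmitter packaging and of the tyrosine hydroxylase pathway followed here were measured in sorted sensory neurons of the mouse dorsal root ganglion (DRG) at 2 groups of spinal levels. They were the vesicular glutamate transporters Slc17a6, Slc17a7 and Slc17a8, the vesicular monoamine transporter Slc18a2, the vesicular GABA and glycine transporter Slc32a1, the GABA-synthesising enzyme gene Gad1, and Gch1, Th, Ddc and Slc6a2 of catecholamine synthesis and uptake. All 10 were picked by symbol through their Ensembl identifiers and make up 10 of the 41388 genes counted. Of these, 7 had enough counts to be tested, and Slc32a1, Ddc and Slc6a2 did not.

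RNA came from adult C57BL/6 mice aged 3 months with EGFP-positive cells of their ganglia isolated by flow sorting. The mice carried 1 allele in which Ret is floxed and followed by EGFP (RetFloxedEGFP), and Cre recombinase in the locus of the sodium channel NaV1.8 (Scn10a<tm2(cre)Jnw>). EGFP therefore replaced Ret where Cre had acted, so that all groups consisted of EGFP-positive, Ret heterozygous cells of the Scn10a lineage. No group lacked Cre. Cells of that lineage without EGFP from the Ret allele were not collected, so all values hold for the EGFP-positive part only. In 4 libraries the genotype field names only 1 of the alleles. L345 stands for pooled ganglia L3, L4 and L5, and L6S1 for pooled ganglia L6 and S1. Males and females each gave 3 libraries per level, lettered A to C except for female L345, where the letters are B to D. Each library was made from a pool of 2 to 8 mice and 12 to 32 ganglia. The pool of male L345 C is given as 5 mice in 1 label and as 3 in a second. Its 18 ganglia equal those of female L345 B and D, each from 3 mice. L6S1 was compared with L345, the comparison named in the title of the series.

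Vesicular transporters load transmitter into synaptic vesicles, and the transporter a neuron expresses is a common guide to the transmitter it releases. Most DRG neurons are glutamatergic and use VGLUT2, the product of Slc17a6. VGLUT3, encoded by Slc17a8, and Th are known as markers of C low-threshold mechanoreceptors, unmyelinated afferents of light touch to hairy skin. Th converts tyrosine to L-DOPA with the cofactor tetrahydrobiopterin, whose synthesis starts with the enzyme encoded by Gch1. Ddc then makes dopamine, Slc18a2 (VMAT2) packages it, Dbh converts it to noradrenaline, and Slc6a2 takes noradrenaline back up.

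Promoter sequences are printed for 4 genes, since the data place them at different points of a very wide range of RNA levels: Th and Slc17a6 at the top, Slc18a2 in the middle and Ddc close to 0. They come from the RefSeq annotation of GRCm38.p6, run 5′ to 3′ on the strand of the gene and end at the start site, or 4 bases after it for Slc18a2. Capitals mark the cAMP response element (CRE) TGACGTCA and matches to the AP-1 motif TGANTCA.
Th (chr7:142899996-142900245, minus strand): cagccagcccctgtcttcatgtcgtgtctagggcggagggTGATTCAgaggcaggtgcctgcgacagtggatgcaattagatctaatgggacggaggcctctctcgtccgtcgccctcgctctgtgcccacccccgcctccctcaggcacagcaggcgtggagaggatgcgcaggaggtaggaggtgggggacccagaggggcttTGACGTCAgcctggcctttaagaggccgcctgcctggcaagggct
Slc18a2 (chr19:59260628-59260881, plus strand): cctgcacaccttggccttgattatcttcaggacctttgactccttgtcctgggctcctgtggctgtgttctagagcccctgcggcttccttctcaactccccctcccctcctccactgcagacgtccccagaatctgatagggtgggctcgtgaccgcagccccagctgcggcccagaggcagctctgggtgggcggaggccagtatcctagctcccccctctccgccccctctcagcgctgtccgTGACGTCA
Slc17a6 (chr7:51621580-51621829, plus strand): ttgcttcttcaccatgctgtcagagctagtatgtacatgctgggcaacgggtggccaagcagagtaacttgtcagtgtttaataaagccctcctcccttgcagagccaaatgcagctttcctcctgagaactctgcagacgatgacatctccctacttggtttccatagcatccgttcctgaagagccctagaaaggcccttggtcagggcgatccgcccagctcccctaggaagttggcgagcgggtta
Ddc (chr11:11898145-11898394, minus strand): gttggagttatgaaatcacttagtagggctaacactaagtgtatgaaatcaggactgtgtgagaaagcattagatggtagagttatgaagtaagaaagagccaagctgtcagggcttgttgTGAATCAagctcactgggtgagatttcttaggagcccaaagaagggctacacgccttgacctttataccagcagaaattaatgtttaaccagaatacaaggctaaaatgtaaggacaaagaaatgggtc

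RefSeq gave 12 start sites for 9 of the 10 genes, each with 250 bases before and 50 after the start. Both strands were searched for the CRE, its shorter form TGACGT, which the CRE contains, the AP-1 motif and the TATA box TATAAA. The CRE, which reads the same on both strands, was present in the promoters of Th (positions -45 to -38 from the start) and Slc18a2 (-4 to 4) and in 588 of all 32851 promoters (1.79%). The AP-1 motif, present in 7.81% of all promoters, matched in Th as TGATTCA (-210 to -204) and at the first Ddc start as TGAATCA (-129 to -123). The shorter form was found only within these 2 CREs, in Th and Slc18a2. Of all promoters 7.51% hold it, those with a full CRE included. The TATA box letters, held by 13.6% of all promoters, occurred on the opposite strand at Ddc, Gad1 and Gch1. These matches are letters in a window and carry no information on binding.

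The 12 libraries held 16176436 to 26694404 counts, and 15281 genes were tested. Transcripts of DRG neurons (9 markers) summed to 9914 to 12330 CPM (counts scaled to library size) at L345 and 10980 to 15590 CPM at L6S1. All 9 were detected in every library. Tubb3 had the highest means, 4299 CPM at L345 and 5969 CPM at L6S1, while Prph had 1236 and 1202 CPM and Scn10a 573 and 429 CPM. Of the 9, 4 were higher and 5 lower at L6S1 in the edgeR fit, and none was called. Female L6S1 libraries stood apart: their rank correlations with each other were 0.958 to 0.963, against 0.986 to 0.993 between libraries within the other groups. Female L345 D, male L6S1 C and female L6S1 B and C carry another form of title and are called the later submission here. Immune markers summed to 2.38 to 3.78 CPM at L345 and 6.55 to 156 CPM at L6S1, where the median was 9.05 CPM. Of these 5 markers 3 were tested, and edgeR called 2 higher. Fibroblast markers summed to 63.2 to 87.6 CPM at L345 and 119 to 315 CPM at L6S1, with 1 of 5 called higher by edgeR. The called gene, Dcn, made up most of this sum (means of 64.3 and 213 CPM). Of the 5, 4 had a positive and 1 (Pdgfra) a negative difference. Satellite glia and Schwann cell markers (8, none called) summed to 1419 to 1901 CPM at L345 and 937 to 1917 CPM at L6S1. Endothelial and mural cell markers (none of the 4 tested called) summed to 197 to 301 and 206 to 411 CPM, most of it Rgs5 (means of 245 and 286 CPM). The part of these cells in the differences below was not tested. In sorted bulk RNA, fewer cells of a type and less RNA per cell cannot be told apart.

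The 10 genes fell into an order that differed little between libraries. Per kilobase of exon, Th stood at 322 ± 81.0 CPM (SD, n = 12) and Slc17a6 at 76.1 ± 12.8 CPM, with no overlap between their ranges. Slc18a2 followed at 6.07 ± 1.62 CPM per kilobase and Slc17a8 at 3.14 ± 1.07. The ranges of these 2 genes overlapped across libraries, but Slc18a2 was the higher in 12 of 12. Gch1 (0.965 ± 0.262 CPM per kilobase) and Gad1 (0.173 ± 0.0658) each lay apart from the gene above. Slc17a7, at 0.0799 ± 0.0774, and Ddc, at 0.0540 ± 0.0441, overlapped in range with each other, and Slc17a7 with Gad1. Slc6a2 had 2 counts in all libraries together and Slc32a1 had none.

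**Figure D1:**
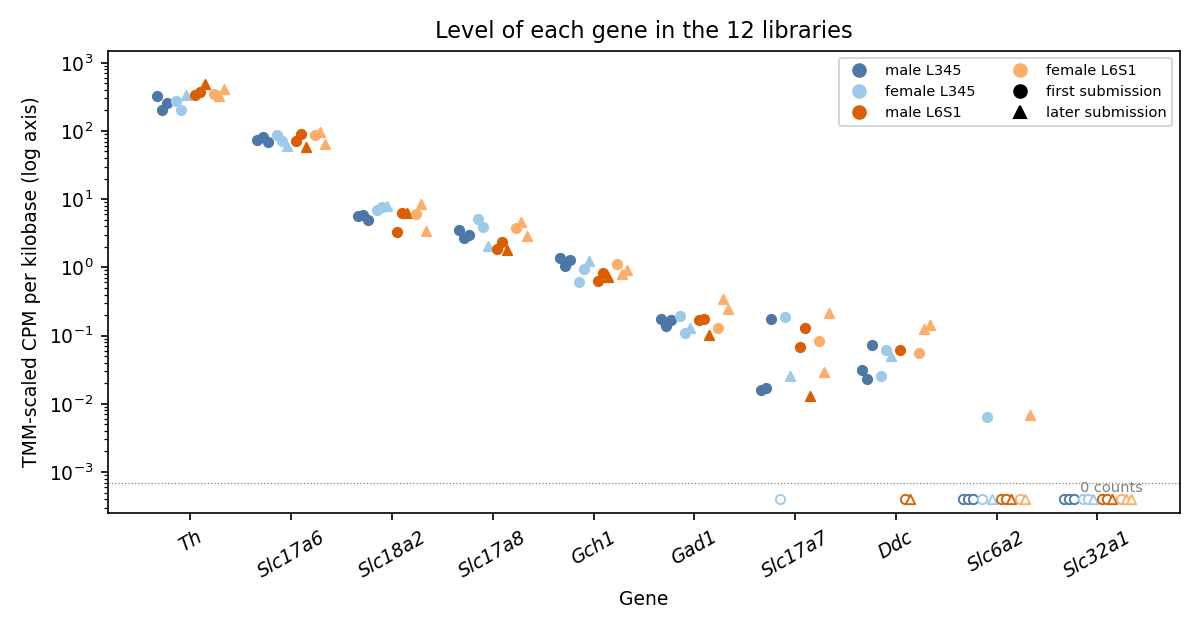
TMM-scaled CPM per kilobase of exon (log axis) of the 10 genes in each of the 12 libraries, ordered by mean; colours give the group, triangles the later submission and open symbols libraries with 0 counts. Th and Slc17a6 occupy the top with 322 and 76.1 CPM per kilobase on average, and Slc32a1 is at 0 in all 12 libraries.

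Among all tested genes, Th ranked 110 to 305 per kilobase, depending on the library. Slc17a6 ranked 719 to 1201. Slc17a8 lay near the middle of the tested genes, with ranks of 6122 to 9132. Th RNA was thus among the most abundant of these neurons, and the transporter RNAs spread from the upper ranks down to 0.

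Slc17a6 (chr7:51621830-51671125, plus strand, GRCm38.p2) was the main vesicular glutamate transporter RNA of the sorted neurons at both levels. It reached 317, 348 and 295 CPM in male L345, 372, 308 and 261 CPM in female L345, 312, 394 and 252 CPM in male L6S1 and 383, 424 and 277 CPM in female L6S1. High and low libraries occurred in every group, and the levels overlapped. The difference between levels was 0.10 ± 0.14 (log2 fold change, L6S1 over L345, ± SE; edgeR adjusted p = 0.668), with a 95% interval for the fold of 0.866 to 1.33. Of the summed RNA of the 3 glutamate transporters per kilobase, Slc17a6 made up 94.3% to 97.4% in the 12 libraries.

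Slc17a8 (chr10:89574020-89621253, minus strand), the VGLUT3 gene, was detected in every library at a small fraction of the Slc17a6 level. Its values were 16.5, 12.5 and 14.3 CPM in male L345, 24.4, 18.3 and 9.84 CPM in female L345, 8.73, 11.3 and 8.61 CPM in male L6S1 and 18.1, 21.5 and 13.7 CPM in female L6S1. In males the 3 L6S1 libraries lay below the 3 L345 libraries, as for 12.2% of all tested genes, while in females the levels overlapped. The level difference over both sexes was -0.29 ± 0.20 (edgeR adjusted p = 0.362), and it was -0.43 without female L345 D and -0.13 without female L345 B. Within males limma-voom called Slc17a8 (-0.72, adjusted p = 0.0371). How many of all genes it called within males was not counted, and the 3276 it called over both sexes belong to another contrast. In edgeR the value within males was -0.60 ± 0.29 (adjusted p = 0.560) and within females 0.02 ± 0.28 (adjusted p = 0.971). The difference between these 2 values was 0.62 ± 0.40 (edgeR adjusted p = 0.871 for the interaction), so in edgeR neither the male value nor a difference between the sexes passed. The share of Slc17a8 in the glutamate transporter RNA was 2.50% to 3.03% in male L6S1, 3.19% to 4.55% in male L345, 3.34% to 5.68% in female L345 and 4.15% to 4.44% in female L6S1.

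Slc17a7 (chr7:45163921-45176138, plus strand), which encodes VGLUT1 of large myelinated afferents, was close to the detection limit. Counts were 1, 1 and 13 in male L345, 0, 14 and 2 in female L345, 5, 9 and 1 in male L6S1 and 4, 2 and 15 in female L6S1. Each group thus contained libraries at or under 3 counts, the floor used here (0.112 to 0.185 CPM), beside at least 1 above it. The level difference was 0.27 ± 0.81 (edgeR adjusted p = 0.841), and its 95% interval of -1.46 to 2.01 is too wide to exclude a large change in either direction.

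Th (chr7:142892752-142931128, minus strand), the first enzyme of catecholamine synthesis, was the most abundant of the 10 genes and the only one whose interval for the level difference lay on 1 side of 0. The gene model of the files reaches upstream of the RefSeq start used above. Its values were 767, 479 and 599 CPM in male L345, followed by 647, 476 and 807 CPM in female L345. In L6S1 they were 799, 870 and 1139 CPM in males and 819, 762 and 963 CPM in females. All 6 L6S1 libraries lay above the mean of the L345 libraries of their sex, and 4 of 6 above the highest L345 library. The male levels did not overlap, with L6S1 above as in 12.5% of all tested genes, and the female levels did. The mean was 629 ± 140 CPM over the 6 L345 libraries and 892 ± 140 CPM over the 6 L6S1 libraries (SD), a 1.42-fold difference with a 95% interval of 1.12 to 1.79. The log2 difference of 0.50 ± 0.16 had an unadjusted p of 0.00598 in the edgeR fit across all genes and an adjusted p of 0.0838, above the threshold of 0.05. Among all tested genes, 26.6% had an unadjusted p under 0.05 in the same contrast.

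The Th difference was of the same direction in both sexes. Males gave 0.61 ± 0.22 (edgeR adjusted p = 0.510) and females 0.40 ± 0.22 (adjusted p = 0.272), and these differed by -0.21 ± 0.31 (adjusted p = 0.939). The female value was 0.22 without female L345 C and 0.59 without female L345 D. In the 8 libraries of the first submission the level difference was 0.48 ± 0.16 (edgeR adjusted p = 0.112), and with a term for the submission 0.39 ± 0.14 (adjusted p = 0.201). The later submission alone holds a single L345 library, Th at 807 CPM, and no difference was tested in it. Without female L6S1 B and C the difference was 0.47 ± 0.17 (edgeR adjusted p = 0.255). The call depended on the setting, and Th passed in 5 of 23 alternatives. Of these, 4 are given here. DESeq2 gave 0.53 (adjusted p = 0.0323) and called 1518 of all 15281 genes. The fit without a filter on low counts gave 0.50 (edgeR adjusted p = 0.0307) and called 841 of 26677 genes. Leaving out female L345 D gave 0.60 (edgeR adjusted p = 0.0463), with 883 of 15696 genes called. Leaving out female L6S1 A gave 0.51 (edgeR adjusted p = 0.0329), with 4031 of 15683 genes called. The main fit called 356 of 15281.

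**Figure D2:**
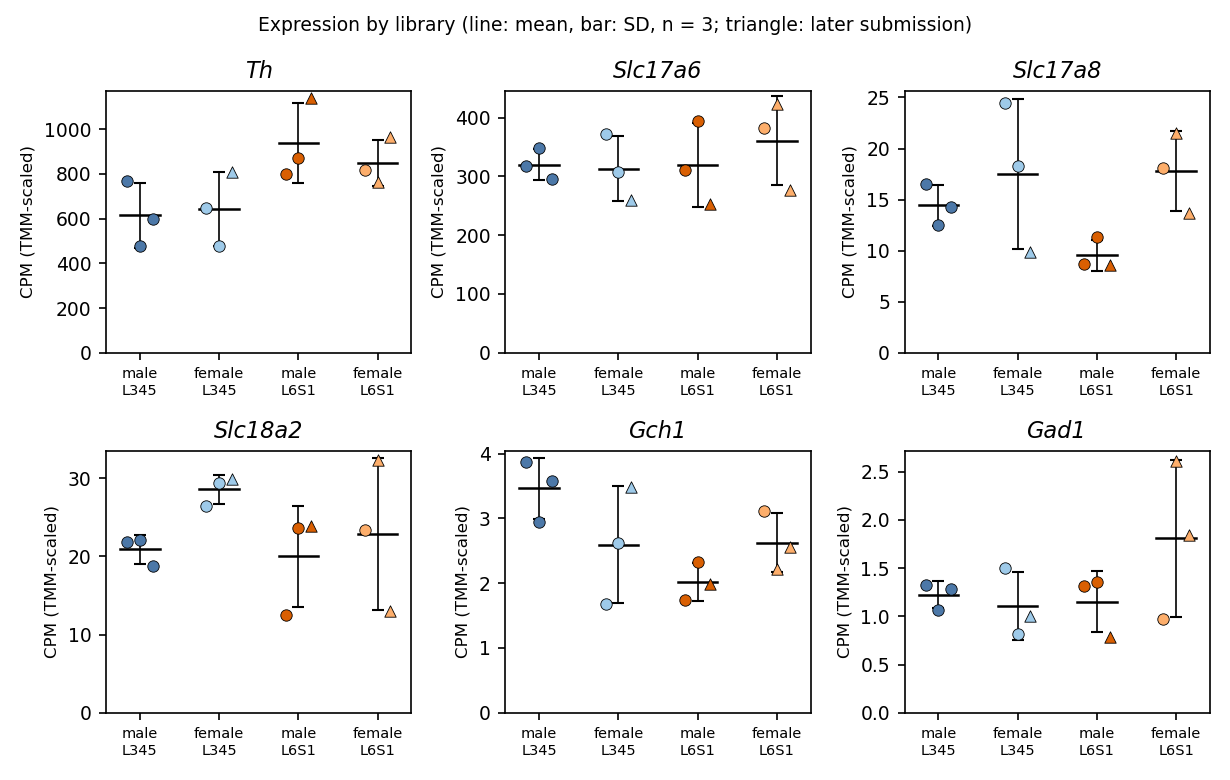
TMM-scaled CPM by group for the 6 genes with counts well above 0 in every library; points are libraries, lines means, bars SD (n = 3) and triangles the later submission. The 6 Th values at L6S1 (762 to 1139 CPM) sit above the L345 mean of their sex, while the L345 and L6S1 values of Slc17a6 and Slc18a2 overlap in both sexes.

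Gch1 (chr14:47153895-47189413, minus strand), which starts the synthesis of the Th cofactor, was expressed at a low level. Levels were 3.87, 2.94 and 3.58 CPM in male L345, 1.69, 2.62 and 3.49 CPM in female L345, 1.75, 2.33 and 1.99 CPM in male L6S1 and 3.11, 2.22 and 2.56 CPM in female L6S1. Male L6S1 lay below male L345 without overlap, as for 12.2% of all tested genes, and the female levels overlapped. The level difference was -0.38 ± 0.21 (edgeR adjusted p = 0.243), and 5 of 6 L6S1 libraries were lower than the mean of same-sex L345. Within males limma-voom called Gch1 (-0.92, adjusted p = 0.0217). How many of all genes it called within males was not counted, and the 3276 it called over both sexes belong to another contrast. In edgeR the value for males was -0.78 ± 0.29 (adjusted p = 0.520) and that for females 0.01 ± 0.29 (adjusted p = 0.988). The interaction of 0.79 ± 0.41 did not pass in edgeR (adjusted p = 0.871).

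Ddc (chr11:11814101-11898144, minus strand), the decarboxylase that follows Th, had 68 counts in all 12 libraries together, beside 216655 for Th. Counts were 3, 2 and 8 in male L345, 3, 7 and 6 in female L345, 7, 0 and 0 in male L6S1 and 4, 13 and 15 in female L6S1. The highest 2 values were in female L6S1 and both zeros in male L6S1, and Ddc did not reach the count needed for a test. Per kilobase, Th was 2543-fold to 19060-fold higher than Ddc in single libraries, where Ddc was set to 3 counts whenever it was below. The lowest ratio was measured (female L6S1 B, 13 Ddc counts). The highest is a lower bound set by that floor (male L6S1 C, 0 Ddc counts). The first and second enzymes of the same pathway thus lay at opposite ends of the measured range.

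Slc18a2 (chr19:59260878-59296012, plus strand), the vesicular monoamine transporter, was present in every library. Libraries held 21.9, 22.1 and 18.7 CPM in male L345, 26.4, 29.3 and 29.9 CPM in female L345, 12.5, 23.6 and 23.8 CPM in male L6S1 and 23.4, 32.3 and 13.0 CPM in female L6S1. Spread was wider at L6S1, where 1 library of each sex lay near 13 CPM. The level difference was -0.19 ± 0.21 (edgeR adjusted p = 0.563), with a 95% interval for the fold of 0.643 to 1.19. It was -0.36 without female L6S1 B and -0.0367 without female L6S1 C. Its annotated exons share 99 bases with the opposite-strand gene Gm29261, which had 0 to 1 counts. Th exceeded Slc18a2 per kilobase 26.1-fold to 56.5-fold at L345 and 38.0-fold to 120-fold at L6S1, and the levels overlapped in this ratio.

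Slc6a2 (chr8:92960079-93001667, plus strand), the noradrenaline transporter, had 1 count in female L345 C and 1 in female L6S1 C and none elsewhere. Dbh, which makes noradrenaline, averaged 0.0796 CPM at L345 and 0.0935 CPM at L6S1, under the floor of 3 counts. Of the 7 markers of sympathetic or enteric noradrenergic neurons, none was tested. Phox2a was at 0 in all libraries, Hand2 never exceeded 3 counts, and the 7 summed to 0.0375 to 0.297 CPM at L345 and 0.0610 to 2.10 CPM at L6S1. The highest sum, 2.10 CPM, lies above the floor of 3 counts, and the part of such cells in the Th level was not tested. Mast cells also carry Slc18a2 RNA. Their 6 markers summed to 130 to 172 CPM at L345 and 124 to 191 CPM at L6S1, most of it Kit (means of 155 and 147 CPM), while Cpa3 had means of 1.197 and 0.684 CPM and Mcpt4 and Fcer1a were at 0 in all libraries. Kit and Cpa3 were tested, and neither passed in edgeR.

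Gad1 (chr2:70553072-70602014, plus strand), which makes GABA from glutamate, was detected at 16 to 60 counts per library. Gad1 levels were 1.32, 1.07 and 1.29 CPM in male L345, 1.499, 0.821 and 1.00 CPM in female L345, 1.31, 1.35 and 0.790 CPM in male L6S1 and 0.976, 2.61 and 1.84 CPM in female L6S1. The highest 2 values were those of female L6S1 B and C, and the other libraries overlapped. The level difference was 0.31 ± 0.27 (edgeR adjusted p = 0.469), and it was -0.15 without female L6S1 B and C. Slc32a1 (chr2:158610767-158615748, plus strand), which loads GABA and glycine into vesicles, had 0 counts of 283926000 in all, which allows up to 0.0106 CPM over the summed libraries, for counting error only. The opposite-strand gene Gm14205, which shares 697 of its 2797 exonic bases, had 0 counts as well.

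Across the contrast of levels, 0 of the 7 tested genes passed an edgeR adjusted p of 0.05, and 1 (Th) had an unadjusted p under 0.05. Over all 15281 tested genes 356 passed (2.33%), 222 higher (1.45%) and 134 lower (0.877%) at L6S1. DESeq2, which called 1518 of all 15281 tested genes, called 1 of the 10 genes (Th), and limma-voom called none. Of the tested genes, 4 were higher and 3 lower at L6S1 in the fit, with a median log2 difference of 0.10, beside -0.0572 for all tested genes. Within males alone and within females alone none of the 7 passed either (smallest edgeR adjusted p of 0.510 and 0.255), against 0.222% and 0.36% of all tested genes. Limma-voom called Slc17a8 and Gch1 within males and none of the 7 within females. How many of all tested genes limma-voom called within each sex was not counted. Over both sexes limma-voom called 3276 genes between levels, against 356 with edgeR. None of the 10 had 6 L6S1 libraries clear of the 6 L345 libraries, as 3.24% of tested genes did. With 12 libraries the intervals in the plot of level effects show what remains possible: a Th difference up to 1.79-fold higher at L6S1, and a Gch1 level at L6S1 down to 0.565 times that at L345.

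**Figure D3:**
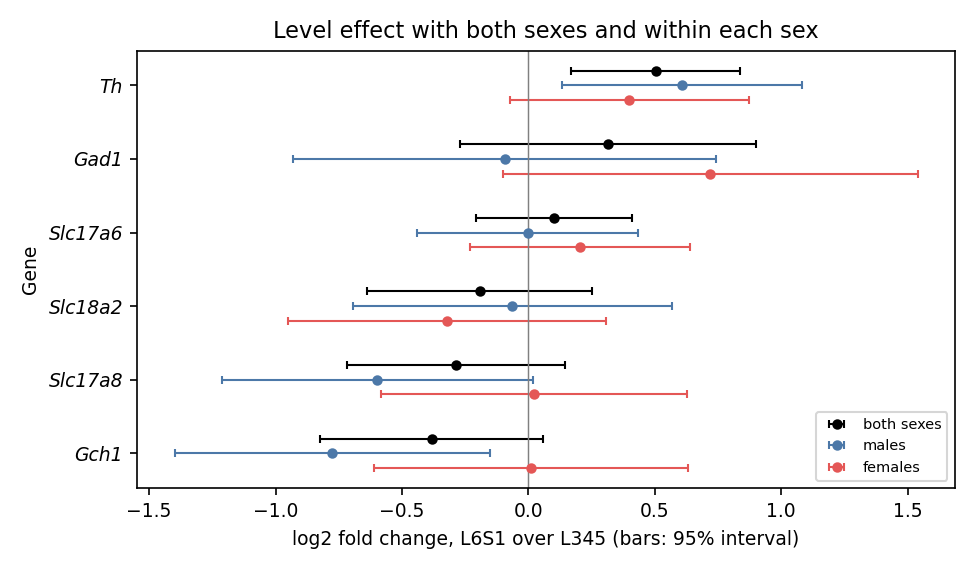
Log2 fold change of L6S1 over L345 with 95% intervals from the edgeR fit, over both sexes (black), in males (blue) and in females (red), for the 6 genes with counts well above 0. Over both sexes only the Th interval (0.17 to 0.84) does not include 0, and the male points lie below the female points for Gad1, Slc17a6, Slc17a8 and Gch1, none of which passed the test of that difference.

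Sex had no called effect on these genes. None of the 7 passed in the female against male contrast (smallest edgeR adjusted p = 0.764), in which 9 of all tested genes passed (0.0589%), and 1 had an unadjusted p under 0.05, as 5.96% of all tested genes did. This gene was Slc17a8, at 0.59 ± 0.20 higher in females (unadjusted p = 0.0111 and adjusted p = 0.764 in the edgeR fit). For the interaction of level and sex, 0 of the 7 and 0 of all tested genes (0%) passed in edgeR. None of the 7 had an unadjusted p under 0.05 there, against 4.67% (714) of all tested genes, and DESeq2 and limma-voom called 2 genes each, none of the 10.

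Genes of the steps around these 10 were read from 6 lists in the same fit, by counts and medians. Of the 6 tetrahydrobiopterin genes other than Gch1, Pcbd1 rose and the other 5 missed the threshold (median log2 difference 0.22). Pcbd1, which recycles the cofactor after its use by Th, stood at 108 to 140 CPM in the 6 L345 libraries and 153 to 198 CPM in the 6 L6S1 libraries. These ranges did not overlap, as for 3.24% of all tested genes, and the difference was 0.50 ± 0.11 (edgeR adjusted p = 0.0292). Pts, the second enzyme of cofactor synthesis, had means of 75.7 and 101 CPM and missed the threshold (0.40 ± 0.10, edgeR adjusted p = 0.0559). Qdpr, which also recycles the cofactor, had means of 224 and 193 CPM (edgeR adjusted p = 0.436). With per-library GC and length offsets the Pcbd1 difference was 0.27 (edgeR adjusted p = 0.0959), and the call was lost without any 1 of the 3 male L345 libraries, the 3 male L6S1 libraries or female L345 B or C, with adjusted p up to 0.0990.

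Of 11 genes of catecholamine and serotonin handling, 6 were tested, 1 rose and 5 did not pass (median 0.29). Maob, a mitochondrial monoamine oxidase, was the gene that rose. It ranged from 0.849 to 2.23 CPM at L345 and from 1.54 to 8.34 CPM at L6S1, with a difference of 1.51 ± 0.32 (edgeR adjusted p = 0.0316). The highest values were in female L6S1 A and C, and the ranges overlapped at male L6S1 C. Maoa, the other monoamine oxidase, was far more abundant, with means of 129 and 163 CPM (0.34 ± 0.11, edgeR adjusted p = 0.0925). Tph2, a tryptophan hydroxylase, had means of 4.92 and 4.48 CPM. The Maob call was lost with a term for the submission (1.56, edgeR adjusted p = 0.0579) and without any 1 of the 3 male L345 libraries, female L345 B or C, or male L6S1 A or B (adjusted p up to 0.0936).

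The 24 genes of synaptic vesicles and release were all tested. Sv2b rose, and the other 23 missed the threshold (median -0.06). Sv2b, a glycoprotein of the synaptic vesicle, ranged from 17.0 to 40.3 CPM at L345 and from 31.0 to 75.6 CPM at L6S1, with a difference of 1.02 ± 0.25 (edgeR adjusted p = 0.0484). The call was lost without any 1 of the 3 male libraries of either level, female L345 B or D, or female L6S1 C (adjusted p up to 0.131), without female L6S1 B and C together, with no filter, and in the first submission alone (1.23, edgeR adjusted p = 0.102). Snap25, of the membrane fusion complex, had means of 2128 and 2134 CPM, the highest of this list (edgeR adjusted p = 0.990). Syt11 and Syt4, of the synaptotagmin family, followed with means of 1937 and 1918 CPM and of 1748 and 1598 CPM.

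No gene passed in the lists of glutamate handling (13 of 14 tested, median -0.26, 2 positive and 11 negative), GABA and glycine handling (6 of 8, median -0.11) and acetylcholine and nucleotide handling (2 of 5). In the first, the transaminase genes Got1 and Got2 had means of 282 and 338 CPM and of 205 and 220 CPM at L345 and L6S1. Slc38a2, a glutamine transporter, had means of 239 and 182 CPM (-0.40 ± 0.16, edgeR adjusted p = 0.145). Abat, which breaks down GABA, had means of 64.9 and 59.6 CPM (edgeR adjusted p = 0.508). The median over all tested genes was -0.0572, and nothing is read from the distance of a list's median to it.

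**Figure D4:**
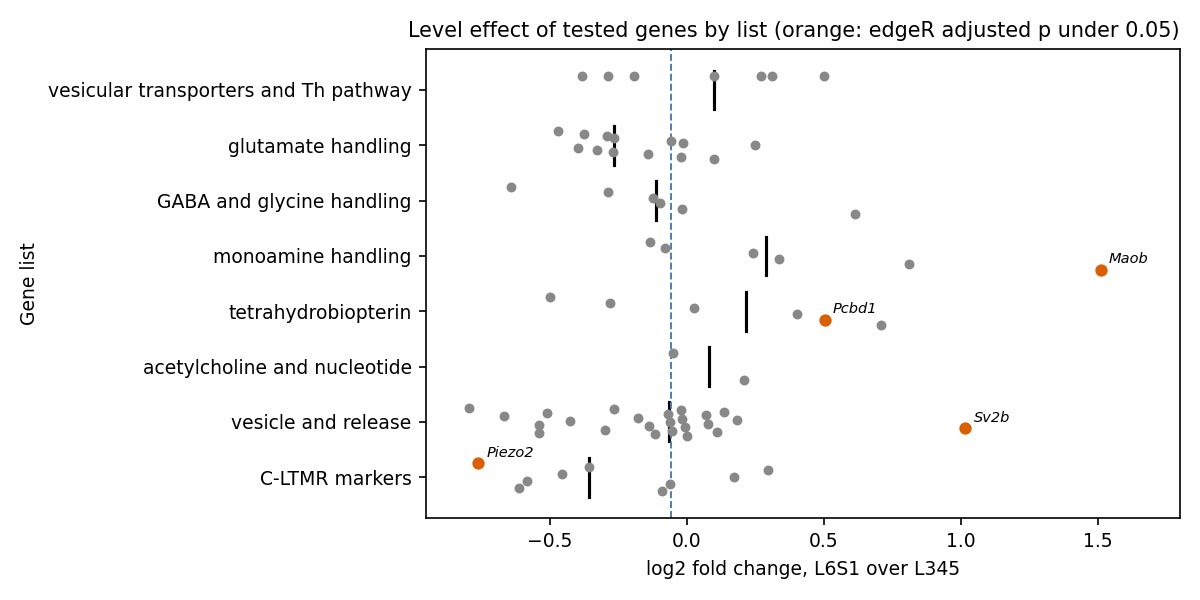
Log2 fold change of L6S1 over L345 for every tested gene of each list; points are genes, black bars list medians, the dashed line the median of all tested genes (-0.0572), and orange points genes called by edgeR. Maob, Pcbd1 and Sv2b are the called genes of the transmitter lists and Piezo2 that of the C low-threshold mechanoreceptor (C-LTMR) markers, while all 7 tested transporter and Th pathway genes are grey.

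Th and Slc17a8 were set beside 9 other markers of C low-threshold mechanoreceptors. Of these, Piezo2, the touch channel, fell (means of 224 and 132 CPM, -0.76 ± 0.16, edgeR adjusted p = 0.0314), 8 did not pass, and the median was -0.36. The Piezo2 call was lost with a term for the submission (-0.60, edgeR adjusted p = 0.0935), without female L6S1 B and C together (-0.68, edgeR adjusted p = 0.0933), and without any 1 of male L345 A or C, female L345 B or C, and male L6S1 A or C (adjusted p up to 0.0993). With GC and length offsets it held at -0.45 (edgeR adjusted p = 0.0280). Tafa4 had means of 308 and 383 CPM (0.30 ± 0.13, edgeR adjusted p = 0.167) and Gfra2 of 344 and 269 CPM (-0.36 ± 0.13, edgeR adjusted p = 0.115). The 9 summed to 1026, 1145 and 1313 CPM (lowest, median and highest) at L345 and 898, 1008 and 1124 CPM at L6S1. Of the 9, 7 had a negative and 2 (Tafa4 and Zfp521) a positive difference, and the sums, which were not tested, overlapped between levels.

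Ratios within a library need no scaling between libraries. Th over Slc17a6, per kilobase, was 2.51 to 5.66 at L345 and 3.29 to 8.25 at L6S1. Th over Slc17a8 was 76.2 to 92.7 in male L345 and 154 to 264 in male L6S1, without overlap. That gap follows from the male values of the single genes given above, with Th higher and Slc17a8 lower at L6S1, and adds nothing to them. In females the ratio of Th to Slc17a8 was 52.0 to 164 at L345 and 70.7 to 140 at L6S1, with full overlap. These ratios are descriptions and were not tested.

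Over the 12 libraries genes most like each of the 5 better expressed members were found by Pearson's r of log2 CPM, out of 11667 genes. The libraries share levels, sexes and submissions, so these values only describe. For Th they were Hpca, a neuronal calcium sensor (r = 0.923), Gnb3 (0.915) and Cdk18 (0.913), and for Slc17a6 Serpini1 (0.970), Bzw1 (0.953) and Atad1 (0.950). Slc17a8 was most like Xpnpep3 (0.949), Crim1 (0.929) and Homer2 (0.910). Slc18a2 was most like Zbtb38 (0.896) and Stk38l (0.892), and Gch1 like Kansl2 (0.895), St3gal5 (0.861) and Setd3 (0.837). No member stood among the 3 nearest genes of another: r was 0.61 between Slc17a6 and Slc17a8, -0.42 between Th and Slc17a8, -0.23 between Th and Gch1, and 0.50 between Th and Tafa4.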

How the data were processed

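RNA was measured in 12 libraries of sorted EGFP-positive DRG cells (4 groups of 3), made from 10 ng of RNA with 12 PCR cycles. The submitters' processing notes name Subread, featureCounts 1.4.5 and the build GRCm38.p2. Annotation release and strand: not given in the sources used here. Each library's table, as the authors deposited it, has a count, a CPM and an RPKM per gene. Per the file values, the deposited CPM is the count scaled to the table's total and the deposited RPKM that CPM per kilobase of gene length. Counts alone were tested. Symbols came from GENCODE M21 (97.3% of genes), and promoters from RefSeq (GRCm38.p6).

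Genes were tested with edgeR 4.0.16 (R 4.3.3): TMM scaling, filterByExpr, 1 mean per group, a robust quasi-likelihood F-test on 8 residual degrees of freedom and Benjamini-Hochberg adjustment over 15281 genes, with calls at 0.05. CPM in the text is TMM-scaled. The code was tested on simulated data. The 10 genes, the lists and the tests were chosen with earlier results of these data known. Named genes were the 10, every called gene of a list, otherwise its 3 most abundant, and for each of the 10 that was tested and had a mean of at least 2 CPM its 3 nearest by correlation (log2 of CPM plus 0.5). Some genes under this rule are not reported here. Alternatives were scaling by RLE or upper quartile, limma-voom with sample quality weights throughout (limma 3.58.1), DESeq2 1.42.0 and no filter. Others were a filter of 1 CPM in 6 libraries, a submission term, the first submission alone and a replicate block. The rest were spline offsets (4 degrees of freedom) for GC and length, and libraries left out. Nothing states that the pools share no mice, so p-values measure the spread between these pools, which may be technical. Total counts and the floor of 3 counts set the precision: that floor is 0.112 to 0.185 CPM. It covers counting error only, since no molecular identifiers were used.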

Additional observations from a re-analysis of the deposited data

Results flagged for a closer look

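Slc6a2 had a single count in 1 of 6 libraries of each level: 0.0391 CPM in female L345 C and 0.0419 CPM in female L6S1 C, with 0 in the other libraries. Each lies far from the others of its level only because these are all at 0, and both are under the floor of 3 counts. Among 26 sets of 6 libraries looked at in this way these were the ones past the critical value of 0.625, and chance flags about 1 set in 20.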

How the results depend on the processing

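Th kept a positive level difference in all 23 alternatives (0.39 to 0.62, adjusted p from 0.00526 to 0.255). The number of the 10 genes called between levels was 1 with DESeq2 and 1 with no filter, 2 with the replicate block (Th 0.62, edgeR adjusted p = 0.00526; Slc17a8 -0.45, adjusted p = 0.0332) and 0 to 1 when a library was left out. Same-letter libraries deviated together with r from 0.0183 to 0.233, and 4 of 5 pairs were at or under 0.1. Pairs of different letters within a sex ran from -0.3 to 0.239. With deviations taken from means of 3 libraries, these values cannot decide whether the letters pair the samples. Of all genes, 545 were called between levels with upper-quartile scaling, 1518 with DESeq2, 3276 with limma-voom, 841 with no filter, 125 with the submission term, 5335 with the replicate block, 137 without female L6S1 B and C, 753 with GC and length offsets and 80 to 4031 when a library was left out. Leaving out any library but female L6S1 B or C moved this last count by over 1.5 times. Between sexes 31 were called with DESeq2, 24 with no filter and 7 to 991 when a library was left out. For the interaction it was 2 with DESeq2, 2 with limma-voom, 3 with no filter, 981 with the replicate block and 0 to 817 when a library was left out. The 4031, 991 and 817 calls all came without female L6S1 A.

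When a library was left out, the level difference was 0.011 to 0.19 for Slc17a6, 0.14 to 0.45 for Gad1 and -0.50 to -0.25 for Gch1. Directions turned for small values. The Slc17a6 level difference was -0.00308 with the replicate block. Gad1 was at -0.0788 in the first submission and -0.15 without female L6S1 B and C, and Slc17a7 at -0.24 to 1.42 when a library was left out. The Th interaction was 0.14 with limma-voom, 0.0701 in the first submission and 0.00853 with the replicate block. In females, the Slc17a8 level difference was -0.10 with limma-voom, -0.27 in the first submission, -0.30 with the replicate block and -0.27 to 0.34 when a library was left out. Gch1 in females was at -0.0114 with no filter, -0.0127 with the submission term and -0.23 to 0.28 when a library was left out. In males, limma-voom called Slc17a8 (-0.72, adjusted p = 0.0371) and Gch1 (-0.92, adjusted p = 0.0217), and in females the replicate block called Th (0.63, edgeR adjusted p = 0.0489). How many of all genes these settings called within a sex was not counted. The cause of these changes was not tested. Depth limits Slc17a7, Ddc, Slc6a2 and Slc32a1.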
